A study of Mus musculus with 12 samples.

Results

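Retinoic acid is made from vitamin A in steps, and 3 genes of that route were followed here across both experiments: Rdh10, Crabp2 and Stra6. They were chosen by name as genes of retinoid synthesis, binding and uptake, out of 1113 genes listed in the tables of either experiment. The libraries were poly(A) RNA-seq of aggregates of the mouse embryonic stem cell line 129w2, with 3 libraries in each of 4 groups. All 12 libraries came from aggregates seeded at 3000 cells per well, given BMP4 at 2 ng/ml (day 3), then retinoic acid at 1 µM together with bFGF at 25 ng/ml (day 4), and moved to new wells on day 5. The co-culture group was kept with mSMGs (an abbreviation left unexplained in the labels) between days 5 and 7, and was compared with its own day 7 aggregates. The cocktail group received a cocktail factor, of which the sources used here give neither composition nor timing, and was compared with a separate set of day 7 aggregates. Because retinoic acid was added to all groups, controls included, no group shows these genes without it. All libraries come from 1 cell line, and the labels do not say whether replicates were separate cultures, so the p-values reflect the spread among these libraries alone, which may be technical.

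Cells take up retinol from its carrier in the blood through the membrane receptor Stra6. Rdh10 oxidises retinol to retinaldehyde, the step that limits synthesis in the embryo, and aldehyde dehydrogenases complete the conversion to retinoic acid. Crabp2 carries retinoic acid to its nuclear receptors, which are pairs of a retinoic acid receptor and a retinoid X receptor. Excess retinoic acid is cleared by Cyp26 enzymes, and in many embryonic tissues the acid itself raises Crabp2 and Stra6. Rdh10 was listed in both experiments, Crabp2 in the co-culture table only, and Stra6 in the cocktail table only. Crabp2 under the cocktail and Stra6 under co-culture were not analysed here.

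All 3 genes are protein-coding and lie on the plus strand (GRCm38, GENCODE M21). Rdh10 (ENSMUSG00000025921) spans chromosome 1 from 16105774 to 16133734, and its principal transcript has 6 exons. Crabp2 (ENSMUSG00000004885) is a short gene on chromosome 3 from 87948666 to 87953376, with 4 exons. Stra6 (ENSMUSG00000032327) has its principal transcript on chromosome 9 from 58129088 to 58153955, with 19 exons. The whole annotated Stra6 gene begins at 58063788 and overlaps Ccdc33 (minus strand) and Gm16131 (plus strand, annotated as antisense type). The principal transcript overlaps neither. Whether counting used strand is not stated in the labels, and strand would not separate Stra6 from Gm16131. Reads from the overlap with these genes could thus not be assigned with certainty.

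Of the 3 genes, Stra6 had promoter windows in the RefSeq table (GRCm38.p6), with 4 start sites. Each window runs from 250 bases before a start to 50 bases from it. The first is shown because it begins the principal transcript, and the second because it holds the only match among the 4 to a retinoic acid receptor half-site. Capitals mark the base at the start site in both and the half-site in the second.
Stra6 start at 58129088, chr9:58128838-58129137, plus strand: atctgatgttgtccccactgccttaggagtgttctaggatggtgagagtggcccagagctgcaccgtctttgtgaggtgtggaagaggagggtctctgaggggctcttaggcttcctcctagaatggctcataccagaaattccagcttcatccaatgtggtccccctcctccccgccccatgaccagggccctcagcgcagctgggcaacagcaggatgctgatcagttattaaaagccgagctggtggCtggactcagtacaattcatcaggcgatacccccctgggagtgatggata
Stra6 start at 58134075, chr9:58133825-58134124, plus strand: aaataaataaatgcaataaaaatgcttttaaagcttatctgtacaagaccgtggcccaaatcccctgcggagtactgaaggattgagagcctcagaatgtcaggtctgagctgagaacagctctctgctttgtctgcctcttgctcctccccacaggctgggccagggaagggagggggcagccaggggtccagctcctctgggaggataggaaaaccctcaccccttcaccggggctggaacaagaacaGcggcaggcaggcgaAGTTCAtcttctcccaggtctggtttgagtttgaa
Retinoic acid receptor half-sites of 4 spellings were searched on both strands in this and all other windows of the table, 32851 in all. AGGTCA was found in 5340 windows. The spelling GGGTCA was found in 4499 windows, and GGTTCA was found in 3414. The remaining spelling, AGTTCA, was found in 4597 windows and begins 15 bases downstream of the Stra6 start at 58134075. Any of the 4 spellings occurs in 43.7% of all windows, and overlapping matches were counted once per window. Direct repeats of any of these half-sites, 1, 2 or 5 bases apart, were also searched. No direct repeat was found in the 4 Stra6 windows, against 0.0974% of all windows for a spacing of 5 bases, 0.268% for 2 and 0.222% for 1. These are matches of letters in short windows and say nothing of binding.

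In the co-culture experiment, Rdh10 was higher in every co-culture library than in any control, but the difference did not pass the test. Its level was 2.20, 2.02 and 1.27 FPKM (fragment counts scaled to transcript length and library size) in controls 1, 2 and 3. The FPKM unit is inferred for this experiment. With co-culture it was 4.05, 5.61 and 2.35 in libraries 1, 2 and 3. The lowest co-culture library, number 3, stood just above the highest control. Mean levels were 1.83 ± 0.496 in controls and 4.01 ± 1.63 with co-culture (SD, n = 3 each), a ratio of means of 2.19. On the log2(FPKM + 1) scale the difference was 0.78 (SE 0.51, limma adjusted p = 0.223 over 425 genes tested, 0.207 with the replicate number as a block). Groups without overlap in the higher direction were found in 29.2% of the genes tested (33.4% in either direction), so this pattern was common in the table.

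Within same-numbered libraries, the Rdh10 level with co-culture was 1.84 times the control in pair 1, 2.77 times in pair 2 and 1.85 times in pair 3. It was higher in all 3 pairs, as were 59.3% of tested genes, and 71.5% went one way in every pair. Pair 3 stands apart in this experiment. There the median difference over the 425 genes was 0.22 on the log2(FPKM + 1) scale, against 0.87 in pair 1 and 1.27 in pair 2. Rdh10 differed by 0.56 in pair 3, ranking 93 from the highest, and ranked 272 in pair 1 and 235 in pair 2. The ratio of Rdh10 in pair 3 was thus close to that in pair 1, while the typical listed gene differed less in pair 3.

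Crabp2, which shuttles retinoic acid to the nucleus, was among the most abundant listed transcripts and was lower in each co-culture library than in its same-numbered control. Its control levels were 650, 1501 and 777 FPKM in libraries 1, 2 and 3, a mean that ranked 2 of 425. With co-culture the levels were 316, 237 and 659. Co-culture library 3 lay above control 1, so the groups overlapped, whereas 4.24% of tested genes were lower without overlap. Means were 976 ± 459 in controls and 404 ± 225 with co-culture (SD, n = 3 each), and the log2(FPKM + 1) difference was -1.31 (SE 0.47). This did not pass the test (limma adjusted p = 0.209, 0.0692 with the replicate block). In the higher and lower directions together, 0% of the 425 genes passed without the block (86 at an unadjusted p under 0.05) and 9.18% with it, of which nearly all were higher (8.94% of the genes tested).

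The size of the Crabp2 difference varied between pairs. The control level was 2.06 times the co-culture level in pair 1, 6.34 times in pair 2 and 1.18 times in pair 3. Lower levels in all 3 pairs were seen in 12.2% of tested genes. Without both libraries numbered 2, the fitted difference was -0.64. In pair 2 Crabp2 ranked 5 from the lowest of 425 genes, in pair 1 it ranked 25, and in pair 3 it ranked 61. Of the 546 listed genes, 91.8% differed by at least 2 times in pair 1, 95.6% in pair 2 and 30.8% in pair 3. The authors' rule for listing genes is not stated in the labels, so how far any pair entered that choice is not known here.

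**Figure D1:**
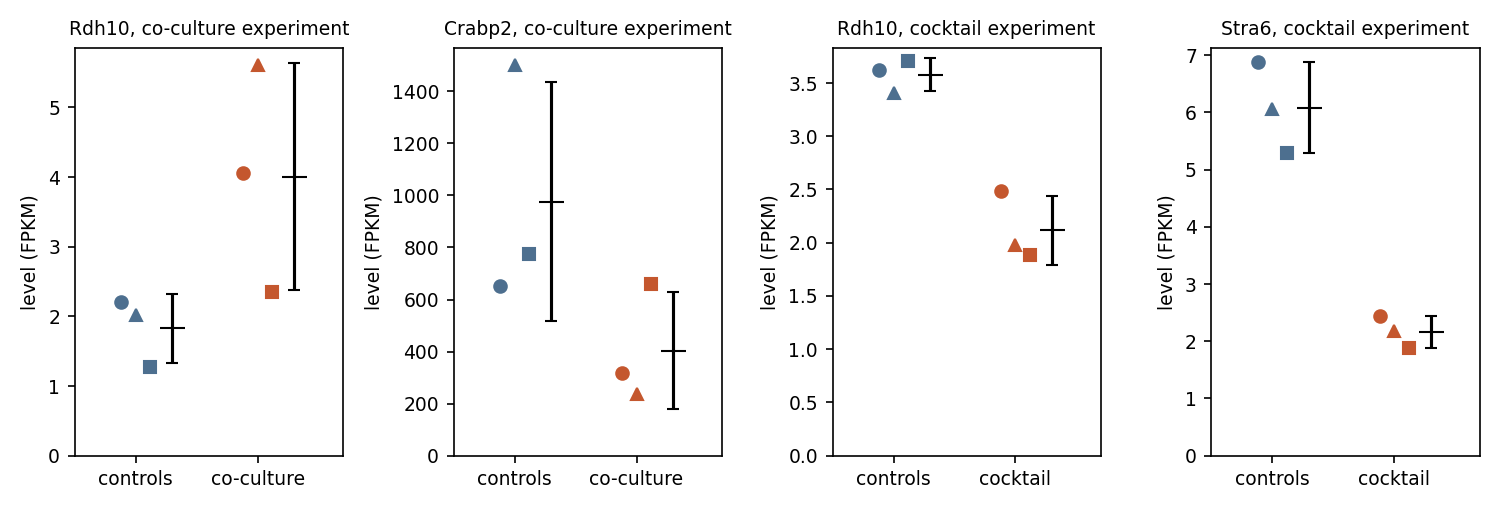
Levels of Rdh10 and Crabp2 in the co-culture experiment and of Rdh10 and Stra6 in the cocktail experiment (y axis, FPKM, from 0). Symbols are single libraries (circle, triangle and square for libraries 1, 2 and 3, in table order for the cocktail), and bars are the mean and SD of 3. Rdh10 is above its controls with co-culture (lowest 2.35 against highest 2.20) and below them with the cocktail (highest 2.48 against lowest 3.41). Groups without overlap in these directions were found in 29.2% and 40.7% of the genes tested.

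Both co-culture calls depended on library 3. Without co-culture library 3, Rdh10 differed by 1.05 (limma adjusted p = 0.0375) and Crabp2 by -1.73 (adjusted p = 0.0181), in a fit in which 73.5% of 449 genes passed (63.3% higher and 10.2% lower). That fit leaves out a library of the pair in which the fewest listed genes differed by at least 2 times (30.8%). Whether such differences entered the listing of genes is not known, so these calls are no independent evidence. Without both libraries numbered 3, neither passed (Rdh10 0.89, limma adjusted p = 0.0794, or 0.0673 with the block, and Crabp2 -1.85, adjusted p = 0.0522, or 0.0643 with the block). Quantile normalization over the listed genes moved the median difference of all tested genes from 0.83 to 0.23, and Rdh10 then differed by 0.08 (adjusted p = 0.859) and Crabp2 by -1.71 (adjusted p = 0.21). Rdh10 therefore lay near the typical listed gene under either scaling, and Crabp2 lay below it.

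Because both genes were measured in the same libraries, a single scaling factor per library leaves their ratio as it is (quantile normalization does not). The Crabp2 level was 295, 742 and 612 times the Rdh10 level in controls 1, 2 and 3. With co-culture it was 77.9, 42.2 and 281 times. Every co-culture library had a lower ratio than any control, though library 3 was close to control 1. The share of other gene pairs with such a separation was not computed. The Crabp2 groups themselves overlapped, and the Rdh10 difference (0.78) was near the median of all tested genes (0.83).

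Listed markers of several cell types differed in the same libraries. Only genes the authors selected can be seen. Of the 546 listed, 91.8% differed by at least 2 times in pair 1, 95.6% in pair 2 and 30.8% in pair 3. Of 10 neuroectoderm markers 3 were listed (Hes5, Fabp7 and Wnt1), and their summed level was 306 to 387 FPKM in controls and 177, 34.3 and 342 with co-culture. Of 11 surface ectoderm markers 2 were listed (Krt19 and Perp), at a sum of 7.20 to 8.51 in controls and 32.7, 190 and 15.1 with co-culture. Of 6 endothelial markers 3 were listed (Kdr, Flt1 and Tek), at a sum of 0.792 to 3.89 in controls and 10.2, 42.1 and 1.65 with co-culture. Of 5 markers of myoepithelium and smooth muscle 3 were listed (Acta2, Tagln and Cnn1, of which Acta2 and Cnn1 were at 0 in some library), at a sum of 1.47 to 8.41 in controls and 26.4, 267 and 1.40 with co-culture. Of 5 neural crest markers 2 were listed (Sox10 and Ets1), at a sum of 2.39 to 9.08 in controls and 27.1, 45.8 and 5.44 with co-culture. Col3a1, 1 of 9 mesenchyme markers, was at 0.0782 to 0.302 in controls and 1.10, 1.49 and 0.0298 with co-culture. Of 8 salivary markers 2 were listed (Sox10 and Chrm3), and their sum of 5.04, 2.57 and 2.33 with co-culture lay within the control range of 1.66 to 5.39. Crabp2 was lowest and Rdh10 highest in co-culture library 2, where these sums, other than the salivary one, also departed most from the controls. Their part in the result was not tested. In bulk RNA a different number of cells of a type, whatever their origin, and a different amount of RNA per cell cannot be told apart.

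Among 37 genes of retinoid synthesis, carriage, binding, clearance and reception, 3 were listed in the co-culture table, and none passed the test (0% of all tested genes did). The remaining gene, Lrp2, encodes megalin, an endocytic receptor that takes up the retinol carrier in kidney. Its level was 4.75, 3.22 and 2.93 FPKM in controls and 15.1, 31.4 and 3.76 with co-culture. Library 3 overlapped with the controls, and the log2(FPKM + 1) difference of 1.57 (SE 0.72) had a limma adjusted p of 0.209, or 0.0672 with the block. The median difference over the 3 tested genes of the route was 0.78, and that of every gene tested was 0.83.

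Of 42 genes known to respond to retinoic acid, 5 were listed and 3 tested in the co-culture table (Crabp2, Hoxa4 and Fgf15). All 3 had negative fitted differences, with a median of -1.31 (all tested genes, 0.83), and none passed. Hoxa4, a homeobox gene of the hindbrain and neck, was at 22.6, 51.1 and 88.4 FPKM in controls 1, 2 and 3 and at 11.2, 23.5 and 45.1 with co-culture. The groups overlapped, but the control was 2.02, 2.17 and 1.96 times its same-numbered co-culture library. In pair 3, where most genes differed little, Hoxa4 ranked 6 from the lowest of 425. Its fitted difference was -0.998 (SE 0.71, limma adjusted p = 0.247, 0.152 with the block). Fgf15, a growth factor of the neural tube, was at 15.2, 5.04 and 8.73 in controls and 2.70, 0.453 and 5.61 with co-culture. It was below its same-numbered control in every pair, with a fitted difference of -1.58 (SE 0.68, limma adjusted p = 0.209, 0.0593 with the block). Of all tested genes, 12.2% were lower in all 3 pairs, as Hoxa4 and Fgf15 were. Shared numbers do not establish a pairing. The other 2 listed genes, the transcription factors Tbx1 and Foxc1, had means under 1 FPKM in both groups and were not tested. Both were higher with co-culture in every pair. The co-culture level of Tbx1 was 2.87, 2.77 and 1.16 times its same-numbered control, and that of Foxc1 4.68, 6.18 and 2.64 times. For Foxc1 the groups did not overlap. The list does not separate genes that retinoic acid raises from genes it lowers, so these directions do not measure a response to it.

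**Figure D2:**
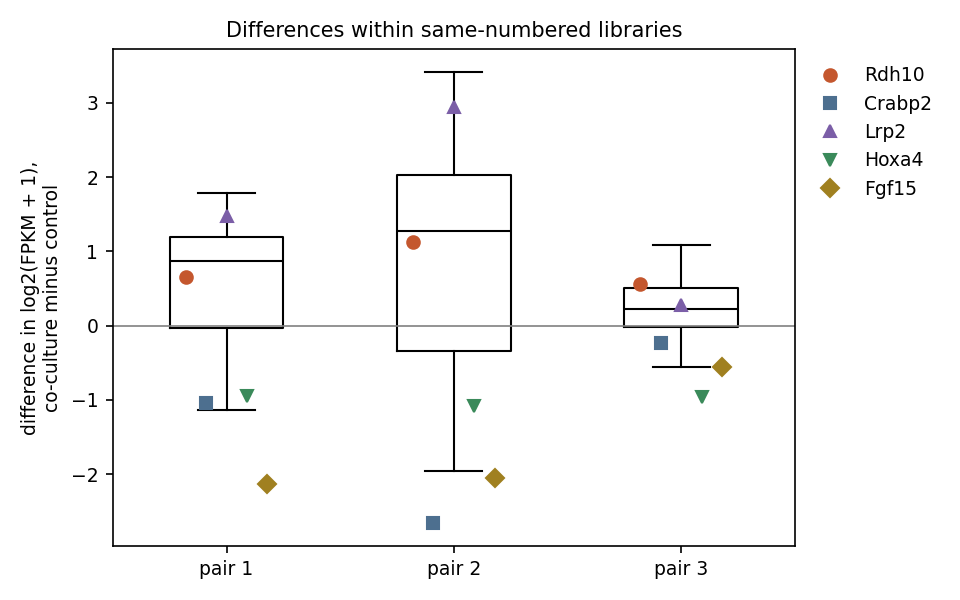
Difference in log2(FPKM + 1), co-culture minus control, within each pair of same-numbered libraries (x axis). Boxes show the median and quartiles of the 425 tested genes, with whiskers at the 5 and 95 percentiles, and coloured symbols are single genes. Hoxa4 stays near -1 in all 3 pairs, at -0.96 in pair 3, while Crabp2 moves from -2.66 in pair 2 to -0.24 in pair 3.

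By the rule for likeness (the smallest root mean square difference of log2(FPKM + 1), each gene centred on its mean over the 6 libraries), the genes most like Rdh10 in co-culture were Zbtb8b, Def6 and Lyn. Their differences from the Rdh10 profile were 0.067, 0.070 and 0.11, against a median of 0.53 over 424 genes. Lyn, a Src-family kinase, was at 0.65, 0.427 and 0.0983 FPKM in controls and 1.77, 2.44 and 0.447 with co-culture. The genes most like Crabp2 were Rnaset2a, Gsx2 and Fez1, at 0.20, 0.23 and 0.23 against a median of 1.41. Gsx2, a homeobox factor of neural progenitors, was at 1.72, 5.85 and 2.89 FPKM in controls and at 0.221, 0.0981 and 3.24 with co-culture.

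With the cocktail, Stra6 and Rdh10 were both lower than in their controls, with no overlap between groups. Stra6, the retinol receptor, was at 6.88, 6.06 and 5.29 FPKM in controls and at 2.44, 2.17 and 1.88 with the cocktail. The highest cocktail library was below the lowest control, and groups without overlap were found in 99.6% of the 536 tested genes (40.7% lower). Mean levels were 6.08 ± 0.794 and 2.17 ± 0.281 (SD, n = 3 each), so that the controls were 2.81 times the cocktail libraries. Stra6 fell by 1.16 on the log2(FPKM + 1) scale (SE 0.12, limma adjusted p = 1.78e-05). The authors' deposited table gives a log2 fold change of -1.48 with an FDR of 6.09e-18 for Stra6, which ranks 140 of the 270 genes the authors list as lower. As the table was limited to genes the authors called changed, 99.6% of the 536 tested genes passed and 40.7% passed as lower, and the Stra6 call is no independent evidence.

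Rdh10 was not in the authors' list of 633 changed genes. It was read from a panel of genes in which 8 were outside that list. Its level was 3.62, 3.41 and 3.71 FPKM in controls and 2.48, 1.98 and 1.89 with the cocktail. The control libraries differed little among themselves, and all cocktail libraries were below them. Groups without overlap in the lower direction were found in 40.7% of the 536 tested genes (99.6% in either direction). Means were 3.58 ± 0.155 and 2.12 ± 0.321 (SD, n = 3 each), a ratio of 1.69. Rdh10 fell by 0.56 on the log2(FPKM + 1) scale (SE 0.11, limma adjusted p = 0.000889). As 99.6% of the tested genes passed and the panel was also the authors' selection, the Rdh10 call is no independent evidence either. The authors' deposited table gives a log2 fold change of -0.73 and an FDR of 2.18e-05 for Rdh10.

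The Stra6 difference was the larger of the pair. In controls the Stra6 level was 1.90, 1.78 and 1.43 times the Rdh10 level of the same library. With the cocktail it was 0.985, 1.10 and 0.999 times. The receptor was thus above the enzyme in every control and about level with it in every cocktail library, on the per-length FPKM scale.

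**Figure D3:**
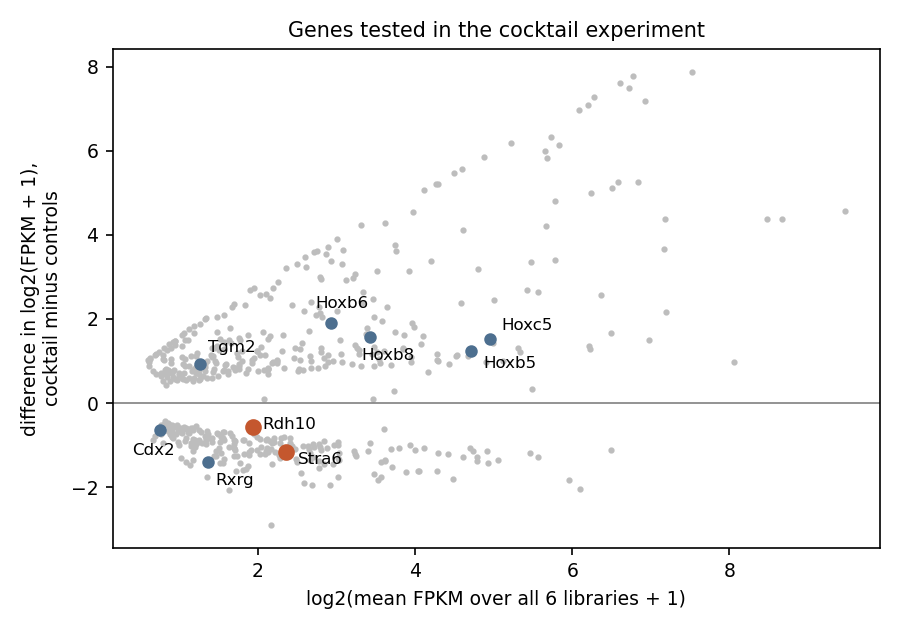
Difference in log2(FPKM + 1), cocktail minus controls (y axis), against the log2 of the mean FPKM + 1 over 6 libraries (x axis) for the 536 tested genes (grey). Rdh10 and Stra6 are in orange, and the other listed genes of the retinoid route or its targets in blue. Rdh10 lies at -0.56 and Stra6 at -1.16, with Rxrg lower still at -1.40, while 4 Hox genes and Tgm2 lie above 0.

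Of the 37 genes of the retinoid route, 3 were listed with the cocktail and all 3 fell, in a table where 40.7% of the 536 tested genes passed as lower and 99.6% passed in either direction. Their median difference was -1.16, and that of all tested genes was 0.78. The remaining gene was Rxrg, the gamma form of the retinoid X receptor. It was at 3.50, 2.43 and 2.25 FPKM in controls and at 0.408, 0.619 and 0.206 with the cocktail, far below every control. Rxrg fell by 1.40 (SE 0.16, limma adjusted p = 3.07e-05), and in the authors' deposited table it ranks 22 of 270 lower genes with a log2 fold change of -2.70. No clearance enzyme of the list (Cyp26a1, Cyp26b1 or Cyp26c1) was among the genes analysed here.

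Of 42 genes known to respond to retinoic acid, 7 were listed, of which 5 rose and 2 fell. Their median difference was 1.24, compared with 0.78 for every gene tested. The share of all tested genes that passed as higher was 59%. The 5 that rose were Hoxb5, Hoxb6, Hoxb8, Hoxc5 and Tgm2, and the 2 that fell were Stra6 and the caudal homeobox gene Cdx2. Tgm2, a transglutaminase long known as a retinoic acid target, rose from 0.654 ± 0.146 to 2.16 ± 0.508 FPKM (SD, n = 3), a log2(FPKM + 1) difference of 0.92 (SE 0.14, limma adjusted p = 0.00017). Cdx2 fell by 0.63 (SE 0.12, adjusted p = 0.000755), from 1.06 ± 0.304 to 0.32 ± 0.0638 FPKM (SD, n = 3). Hoxb6 rose by 1.91 (SE 0.32, limma adjusted p = 0.000341) and Hoxc5 by 1.53 (SE 0.23). Hoxc5, Hoxb8 and Hoxb5 did not pass under quantile normalization, which put Hoxb5 at 0.00 and under which 90.5% of the 536 genes passed (47.4% higher and 43.1% lower). The listed genes thus moved in both directions, with Stra6 and Tgm2 opposite to each other. As the list does not give the direction in which retinoic acid moves each gene, this does not measure a response to it.

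The profile most like that of Rdh10 with the cocktail was that of Dlx3, a homeobox gene of surface ectoderm, followed by the laminin chain Lama5 and by Cobl, an actin nucleator. Their differences from the Rdh10 profile were 0.053, 0.054 and 0.064, against a median of 0.70 over 501 genes and 6 libraries. Dlx3 was at 1.24, 1.29 and 1.44 FPKM in controls and 0.717, 0.592 and 0.533 with the cocktail. The genes most like Stra6 were Slc23a4, Mylip and Eno3, at 0.061, 0.066 and 0.068 against a median of 0.99. Mylip, a ubiquitin ligase of the LDL receptor, was at 13.2, 11.7 and 11.6 FPKM in controls and 5.32, 4.91 and 3.94 with the cocktail.

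Markers of some cell types were lower and of others higher with the cocktail, beside the lower Rdh10 and Stra6. Of 9 mesenchyme markers 3 were listed (Pdgfra, Col3a1 and Twist1), with sums of 21.2 to 24.2 FPKM in controls and 5.95 to 7.34 with the cocktail. Of 11 surface ectoderm markers 3 were listed (Tfap2c, Krt19 and Dlx3), with sums of 20.7 to 22.8 and 7.07 to 8.70. Of 10 neuroectoderm markers 2 were listed (Wnt1 and Lmx1a), with sums of 120 to 129 and 31.6 to 38.5. The endothelial marker Kdr, 1 of 6, was also lower, at 4.44 to 5.76 in controls and 1.42 to 1.75 with the cocktail. Other classes were higher without overlap, each through 1 listed gene at a low level. Acta2, of 5 myoepithelium and smooth muscle markers, was at 0.250 to 0.372 in controls and 1.04 to 1.18 with the cocktail. Cd74, of 6 immune markers, was at 0.417 to 0.493 and 1.53 to 2.82, and Chrm3, of 8 salivary markers, at 0.153 to 0.350 and 0.437 to 1.01. Most of these genes were listed because they changed, and their part in the fall of Rdh10 and Stra6 was not tested.

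**Figure D4:**
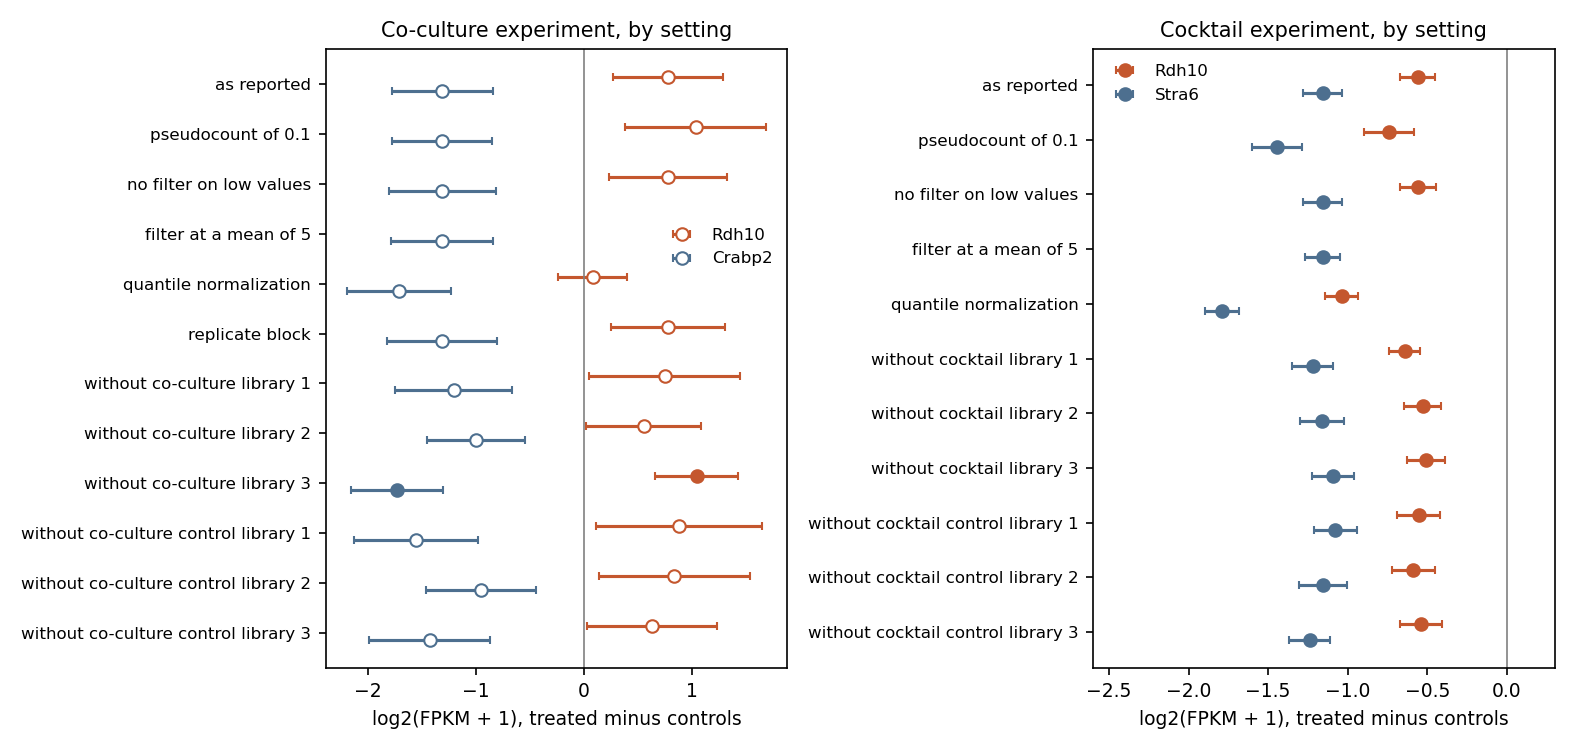
Fitted difference in log2(FPKM + 1), treated minus controls (x axis), with its SE (bars), for each planned setting (y axis). Filled symbols passed an adjusted p of 0.05 and open ones did not. Rdh10 and Stra6 stay below 0 and pass in every setting shown for the cocktail (Rdh10 from -1.04 to -0.51). The authors selected these genes, and 99.6% of the 536 tested passed as reported and 90.5% under quantile normalization. Rdh10 and Crabp2 with co-culture pass in 1 setting each, without co-culture library 3.

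Rdh10 is the member measured in all 4 groups. Its mean level was highest with co-culture (4.01 FPKM), then in the cocktail controls (3.58), the cocktail libraries (2.12) and the co-culture controls (1.83). The co-culture and cocktail control libraries overlapped, as did the cocktail libraries and the co-culture controls. The cocktail controls and the cocktail libraries did not, as in 99.6% of the 536 genes tested with the cocktail. Since the tables were normalized separately, the order between experiments is a description only.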

How the data were processed

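Per the submitters' processing notes, HISAT2 and the build GRCm38 were used. The sources used here do not name the quantifier. The authors deposited values for 546 co-culture genes without a unit in the header. These values have decimals and no common total and were taken here as FPKM. Selected genes need not share a total under another scaled unit either, so the FPKM unit is inferred. For the cocktail the authors deposited FPKM per the file headers, with log2 fold changes and FDR (adjusted p-values), for 633 genes and a panel. Values of 10 panel genes, Rdh10 included, stand 1 column from their header and equal those at the foot of the sheet (10 of 10). Both tables hold genes the authors selected. Another 12 columns of per-sample values were not used, and library depth was not analysed here.

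IDs were matched to GENCODE M21 (546 of 546 and 594 of 633). Each experiment was fitted alone with limma 3.58.1 (R 4.3.3, trend) on log2(FPKM + 1), keeping genes whose mean FPKM reached 1 in at least one group, with Benjamini-Hochberg adjustment over all genes tested (threshold 0.05), and tested on simulated data. Cocktail columns name the group but not the library, so they are unnumbered replicates. Deviations from the group mean correlated at 0.606, 0.143 and 0.256 between same-numbered co-culture and control libraries. Between differently numbered ones the correlations ran from -0.349 to 0.0419. Deviations of 3 libraries from their own mean are not independent, so these values do not establish a pairing. The main fit therefore had no block, and the replicate number as a block was an alternative. Members, lists and tests were chosen with earlier results of these data known. Named genes are the members, the listed genes of both retinoid lists, and the 3 genes most like each member.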

Additional observations from a re-analysis of the deposited data

Results flagged for a closer look

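Rdh10 differed in opposite directions in the experiments: all co-culture libraries were above all their controls, with a log2(FPKM + 1) difference of 0.78, and all cocktail libraries were below all theirs, with -0.56. Of the genes tested in each experiment, 29.2% were higher without overlap with co-culture, and 40.7% were lower without overlap with the cocktail. The co-culture value of Rdh10 did not pass its own test (limma adjusted p = 0.223). The difference between the experiments was not tested, because the tables were normalized separately. Of 48 genes tested in both experiments, 1 (2.08%) had this pattern, and that gene is Rdh10. The pattern counted is the one seen in Rdh10, and the reverse pattern was not counted, so the share does not measure rarity. The co-culture side rests on a lowest library of 2.35 against a highest control of 2.20 FPKM. Under quantile normalization the co-culture difference was 0.08.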

How the results depend on the processing

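With co-culture, 0 genes passed as reported, 39 with the replicate block, and between 0 and 330 when single libraries were left out, with 330 without co-culture library 3 and 1 without control 1. In settings added after seeing the data, 2 genes passed without both libraries numbered 3 (0 with the block), 0 without both numbered 2 (2 with the replicate block), and 0 without both numbered 1, with or without it. With single libraries left out, Rdh10 ranged from 0.55 to 1.05 and Crabp2 from -1.73 to -0.95, and each passed only without co-culture library 3. The block changed neither gene's call (Rdh10 0.78, Crabp2 -1.31). No setting reversed a direction, although quantile normalization left Rdh10 at 0.08. With the cocktail, 530 to 536 genes passed when single columns were left out, and 255 of 256 with a filter at a mean of 5. Rdh10 and Stra6 passed in all their settings, over 9 and 10 alternatives, at limma adjusted p-values of at most 0.00509 and 0.000353. The authors selected the cocktail genes, and 99.6% of the 536 tested passed as reported and 90.5% under quantile normalization. Passing in every setting is therefore no independent evidence. At the filter of 5, Rdh10 had no value in either experiment. No paired analysis of the cocktail was possible because its columns carry no replicate number of the labels. The planned edgeR and DESeq2 fits on the count columns were not run. Those columns cover selected genes only, so library sizes could not be summed from them. The number of libraries limits the precision.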

Other observations

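The controls of the experiments carry the same day 7 label but differed in Rdh10. Its mean was 1.83 FPKM in the co-culture controls and 3.58 in the cocktail controls, 1.95 times as high, with no overlap between the libraries. Over 33 genes listed in both tables with a control mean of at least 1, the median ratio was 1.28, with quartiles of -0.25 and 0.65 on the log2 scale, against 0.97 for Rdh10. These log2 values are of ratios without 1 added, unlike the fitted differences. As ratios of means, the gap between control sets (1.95) was of the size of the differences within each experiment. Those were 2.19 for co-culture over its controls and 1.69 for the cocktail controls over the cocktail. How many of the 33 genes also lacked overlap between the control sets was not computed. The FPKM unit of the co-culture values is inferred. The tables were normalized separately and hold selected genes, so this is a description.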
